A study of Mus musculus with 12 samples.

Results

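Svop, Ltb4r1, Ltb4r2, Slc19a2, Sec14l5, Zfp365 and C130046K22Rik are 7 of the 24421 gene symbols in the deposited table, and they were chosen by their measured counts: each was higher in Eftud2-mutant than in control mouse embryos at embryonic day 9.0 (E9.0), and each lies outside the lists of p53 targets in common use. Eftud2 encodes a GTPase of the spliceosome, and its alteration here was restricted to neural crest cells, per the series' design text. The 12 untreated libraries came from C57Bl/6 embryos and formed 4 groups of 3, namely Eftud2+/- (heterozygous, labelled control) at E9.0, Eftud2-/- (homozygous, labelled mutant) at E9.0, and the same genotypes at E9.5. No wild-type group was analysed here, so all controls carried the heterozygous change. The Cre driver and the number of embryos in a library are not given in the sources used here. The source of the RNA is labelled neural crest cells, the tissue cranial nerve ganglia, while the protocol describes heads, which hold many other cell types. All 10 neural crest markers and all 13 markers of cranial ganglia and neurons examined were present in counts sufficient for testing. In bulk RNA, fewer cells of a type and less RNA per cell cannot be told apart, and nothing in the labels says whether the libraries of a group were separate litters, so p-values measure the spread between these libraries.

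The p53 pathway is the reference for these genes because the series concerns Mdm2 and p53 activity. The p53 protein binds DNA as a tetramer at elements made of a pair of decamers and switches on genes of growth arrest, cell death and repair; Mdm2 holds it in check, and Cdkn1a, the inhibitor of cyclin-dependent kinases known as p21, is its best known target. The 7 genes have diverse roles. Ltb4r1 and Ltb4r2 are the high- and low-affinity receptors of leukotriene B4, a lipid mediator that attracts leukocytes. Slc19a2 is a thiamine (vitamin B1) transporter of the cell membrane and has been described elsewhere as a p53 target. Svop is a synaptic vesicle membrane protein related to the SV2 transporters, Sec14l5 belongs to the SEC14-like lipid-binding proteins, and Zfp365 is a zinc-finger protein whose human counterpart has been linked to the stability of fragile sites and telomeres. C130046K22Rik is a long non-coding RNA.

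The genes lie on 6 chromosomes, and both leukotriene receptors are the only neighbours among them. In GENCODE M21 (GRCm38, the mm10 build named by the submitters) Svop spans chr5:114026910-114091570 on the minus strand, Slc19a2 chr1:164249046-164265385 on the plus strand, Sec14l5 chr16:5147109-5187271 on the plus strand, Zfp365 chr10:67886103-67912662 on the minus strand and C130046K22Rik chr11:103697724-103722832 on the plus strand. Ltb4r2 (chr14:55761428-55765138) and Ltb4r1 (chr14:55765962-55768494) run in the same direction with 824 bases between them. Their transcripts are distinguishable by short reads: 0 of the 1370 different words of 25 bases in the Ltb4r1 transcript occur in those of Ltb4r2, on either strand, and the longest stretch they share is 14 bases.

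Promoters of 5 of the 7 genes matched the RefSeq table (GRCm38.p6), which gives 250 bases before and 50 after each annotated start; Svop and Ltb4r2 were not matched. They were searched for the p53 decamer consensus, which reads the same on both strands, and for the best pair of decamers separated by 0 to 13 bases with C and G in place at the core of each. 3 promoters are shown because they bear on the comparison with Cdkn1a: that of Cdkn1a itself, as the known target, and those of Sec14l5 and Zfp365, the members with the closest matches. Capitals mark the best pair of decamers.
Cdkn1a, chr17:29090729-29091028, plus strand: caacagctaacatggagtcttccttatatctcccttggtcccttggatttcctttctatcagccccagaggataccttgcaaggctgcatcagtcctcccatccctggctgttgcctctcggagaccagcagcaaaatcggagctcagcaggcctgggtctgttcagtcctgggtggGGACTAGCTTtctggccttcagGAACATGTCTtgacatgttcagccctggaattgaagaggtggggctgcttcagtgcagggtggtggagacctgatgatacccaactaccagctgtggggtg
Sec14l5, chr16:5146859-5147158, plus strand: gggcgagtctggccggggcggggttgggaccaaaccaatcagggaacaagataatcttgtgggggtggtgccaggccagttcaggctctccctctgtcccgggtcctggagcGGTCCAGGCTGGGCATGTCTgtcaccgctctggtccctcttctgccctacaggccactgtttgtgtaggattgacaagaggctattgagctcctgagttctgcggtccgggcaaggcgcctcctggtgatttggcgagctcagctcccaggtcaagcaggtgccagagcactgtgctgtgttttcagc
Zfp365, chr10:67912613-67912912, minus strand: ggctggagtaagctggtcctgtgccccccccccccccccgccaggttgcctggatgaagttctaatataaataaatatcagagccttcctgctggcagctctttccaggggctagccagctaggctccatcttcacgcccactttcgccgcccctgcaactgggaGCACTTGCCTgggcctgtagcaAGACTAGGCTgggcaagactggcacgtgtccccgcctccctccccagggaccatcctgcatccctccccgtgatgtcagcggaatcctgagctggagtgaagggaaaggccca
In this Cdkn1a window both decamers matched in full, which 0.074% of the 27025 genes in the table showed. The other annotated Cdkn1a start had no full decamer. Sec14l5 had 1 full decamer, GGGCATGTCT, beginning 128 bases before the start, directly preceded by a decamer that brought the pair to 3 mismatches; 9.55% of all genes had a full decamer and 17.4% a pair with at most 3 mismatches. Zfp365 had no full decamer and a pair with 2 mismatches 12 bases apart; 4.71% of all genes had a pair with at most 2 mismatches. The best pairs of Slc19a2 and C130046K22Rik had 4 mismatches each, a level reached by 43.6% of genes, and that of Ltb4r1 had 6. These are matches of letters, not sites of binding.

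Sequencing depth limited the rarest of these transcripts. The E9.0 libraries held 13914543 to 24302660 counts and the E9.5 libraries 24165537 to 31172708. The precursor of ribosomal RNA, Rn45s, made up 37.4% of heterozygous replicate 1 at E9.0 and 4.40% to 16.2% of the other 11 libraries, which scaling by trimmed means of M values (TMM) takes into account. Levels are given as CPM, counts scaled to a common TMM-adjusted library size. Eftud2 itself was at 275 to 302 CPM in heterozygous and 232 to 236 CPM in homozygous E9.0 libraries, and at 248 to 264 against 221 to 226 CPM at E9.5 (log2 difference −0.29 ± 0.05 and −0.19 ± 0.05, SE; edgeR adjusted p 0.0193 and 0.0906). All 7 genes passed the filter on low counts. Only Slc19a2, Zfp365 and C130046K22Rik, however, reached its minimum of 0.413 CPM in all 12 libraries; Svop did so in 9, Ltb4r2 in 6, Sec14l5 in 5 and Ltb4r1 in 4, and for the last 4 genes 0 of 3 heterozygous E9.0 libraries did.

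At E9.0, the stage that chose the genes, each of the 7 was higher in every homozygous than in every heterozygous library, as were 9.07% of the 14810 tested genes (49.0% had an estimate above 0, 6.76% were higher at an unadjusted p under 0.05 and 0.432% at an adjusted p under 0.05). The values below describe this choice and carry no test. Svop, the vesicle protein, had 4, 1 and 7 counts in the heterozygous and 27, 32 and 55 counts in the homozygous libraries. Its level was 0.294, 0.0536 and 0.301 CPM against 2.03, 1.83 and 3.71 CPM, a log2 difference of 3.51 ± 0.42 (SE). The ratio of summed scaled counts was 11.6, with an exact interval of 6.38 to 23.1 for counting error alone. Heterozygous libraries held few counts, and homozygous replicate 3 was highest.

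The leukotriene receptors had few counts in controls. Ltb4r1 had 2 counts in each heterozygous E9.0 library and 16, 9 and 30 counts in the homozygous ones, or 0.516 to 2.03 CPM. Summed over each group, its scaled counts were 11.2 times as high in homozygous libraries, with an exact interval for counting error alone of 4.82 to 31.8. Ltb4r2 had 3, 2 and 2 counts against 18, 13 and 36, and its ratio was 11.7 (5.36 to 30.1). The receptors had the same order of homozygous libraries, with replicate 3 highest and replicate 2 lowest.

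Slc19a2, the thiamine transporter, was readily detected in all libraries. It stood at 6.09, 7.13 and 7.91 CPM in heterozygous and 21.6, 19.8 and 30.9 CPM in homozygous E9.0 libraries, a log2 difference of 1.75 ± 0.15 (SE), or 3.38-fold. Sec14l5 had 1, 3 and 6 counts in heterozygous against 22, 15 and 25 counts in homozygous libraries (0.0734 to 0.258 against 0.859 to 1.69 CPM), a log2 difference of 2.91 ± 0.55 (SE). Its ratio of summed scaled counts was 7.56 (3.85 to 16.5, counting error alone). The groups did not overlap for either gene.

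Zfp365 and C130046K22Rik had smaller differences from a clear control level. Zfp365 was at 10.6, 10.9 and 13.3 CPM in heterozygous and 23.7, 23.1 and 29.0 CPM in homozygous E9.0 libraries, a log2 difference of 1.11 ± 0.13 (SE), or 2.16-fold. C130046K22Rik was at 2.86, 3.325 and 3.05 CPM against 5.41, 5.21 and 6.89 CPM, a log2 difference of 0.91 ± 0.17 (SE), or 1.89-fold. Leaving out heterozygous replicate 1, the library rich in Rn45s, gave E9.0 log2 differences of 3.69 for Svop, 3.61 for Ltb4r1, 3.89 for Ltb4r2, 1.67 for Slc19a2, 2.66 for Sec14l5, 1.05 for Zfp365 and 0.87 for C130046K22Rik. Without homozygous replicate 3 they were 3.13, 2.87, 2.96, 1.53, 2.74, 0.9996 and 0.78 in the same order. Since the groups of each gene do not overlap at E9.0, leaving out a library could not change a sign.

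**Figure D1:**
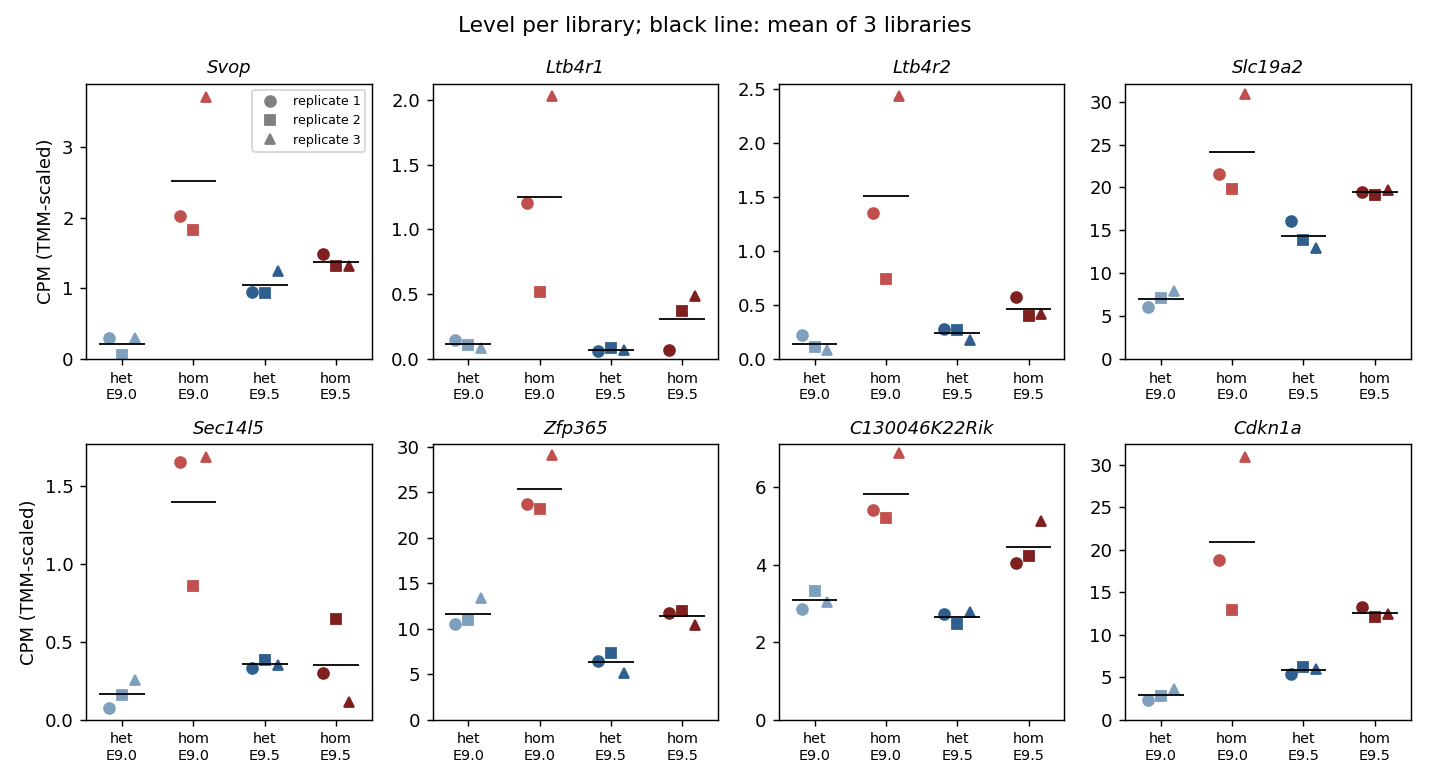
Level of each of the 7 genes and of Cdkn1a in CPM (linear axes from 0) in every library; marker shapes are replicates 1 to 3, colours the 4 groups of 3, and the black line is the group mean. In all 8 panels homozygous E9.0 replicate 3 is the highest of the 12 libraries.

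The E9.5 libraries were not used by the rule that chose the genes and provide the test. There, 2 of the 7 genes were higher in homozygous embryos at an adjusted p under 0.05 (edgeR's quasi-likelihood test, adjusted over all tested genes), where 1.19% of the 14810 tested genes were. The estimate was above 0 for all 7, as for 49.2% of tested genes. That count includes Ltb4r1, described below, and Sec14l5, whose 0.04 ± 0.48 (SE) turned to −0.25 with limma-voom. Sec14l5 reached the count minimum in 3 homozygous E9.0 libraries and 1 library of each E9.5 group. It thus passed the 12-library filter only through the group that chose it, but stayed testable when only the E9.5 libraries were fitted (0.04). At an unadjusted p under 0.05, 4 of the 7 passed, as did 8.09% of tested genes in the same direction. Among the 4 is Ltb4r1 (exact permutation p 0.3), which reached the count minimum in 3 homozygous E9.0, 1 homozygous E9.5 and 0 heterozygous libraries. It was thus testable only through the group that chose it, and it dropped out when only the E9.5 libraries were fitted. For 5 of the 7 every homozygous library lay above every heterozygous one, as for 11.4% of tested genes. With 3 libraries against 3, the exact permutation test of a single gene cannot go below 0.1.

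Zfp365 was the clearest case. It was at 6.46, 7.34 and 5.19 CPM in heterozygous and 11.7, 11.98 and 10.4 CPM in homozygous E9.5 libraries, so the groups were well separated. Heterozygous libraries averaged 6.33 ± 1.08 CPM and homozygous ones 11.4 ± 0.856 CPM (SD, n = 3 each). The log2 difference of 0.84 ± 0.13 (SE) passed the threshold (edgeR adjusted p 0.00357). Its E9.5 call was kept in all 17 alternative analyses, the 6 that left out 1 E9.5 library included. Control embryos had less Zfp365 at E9.5 than at E9.0, and homozygous E9.5 libraries were at about the level of heterozygous E9.0 ones (11.6 ± 1.498 CPM, SD, n = 3).

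C130046K22Rik, the non-coding RNA, was the other gene past the threshold. Its level was 2.74, 2.47 and 2.77 CPM in heterozygous and 4.05, 4.24 and 5.14 CPM in homozygous E9.5 libraries, without overlap. The log2 difference was 0.75 ± 0.15 (SE; edgeR adjusted p 0.0180), beside 0.91 at E9.0, the stage that chose the gene. The call was lost without heterozygous E9.5 replicate 2 (0.70, edgeR adjusted p 0.0710) and without homozygous E9.5 replicate 3 (0.64, edgeR adjusted p 0.0923). It was also lost when libraries were scaled by total counts alone (0.74, edgeR adjusted p 0.0806). The gene overlaps exons of Gosr2 on the other strand over 149 bases, 19.1% of its exonic length, so some of its counts may belong to Gosr2 if strand was not used.

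Endothelial genes also moved between the genotypes at E9.5. Of 10 endothelial markers, 8 were higher in homozygous E9.5 libraries at an adjusted p under 0.05 (edgeR) and 2 did not pass, and their summed level was 183 to 258 CPM in heterozygous and 328 to 369 CPM in homozygous libraries. At E9.0, 0 of 10 passed (edgeR; 3 had an unadjusted p under 0.05), with sums of 282 to 303 against 332 to 344 CPM. The E9.5 count was 4 to 9 when 1 E9.5 library was left out. None of the markers was at 0 in any group. The part of endothelial RNA in the E9.5 results for Zfp365 and C130046K22Rik was not tested.

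Slc19a2 missed the threshold at E9.5 in the 12-library model. It was at 16.1, 13.9 and 12.999 CPM in heterozygous and 19.5, 19.2 and 19.7 CPM in homozygous E9.5 libraries, and the groups did not overlap. The log2 difference was 0.44 ± 0.14 (SE; 95% interval 0.15 to 0.72; edgeR adjusted p 0.136). Fitted on the 6 E9.5 libraries alone, the same difference passed (0.44, edgeR adjusted p 0.0387). Between E9.0 and E9.5 its control level went from 7.05 ± 0.913 to 14.3 ± 1.61 CPM (SD, n = 3 each).

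For Svop the E9.5 difference was smaller than its error allowed to be called. Its level was 0.945, 0.939 and 1.24 CPM in heterozygous and 1.48, 1.32 and 1.31 CPM in homozygous E9.5 libraries. The groups did not overlap, but the log2 difference of 0.40 ± 0.29 (SE; 95% interval −0.22 to 1.02) did not pass (edgeR adjusted p 0.632). In controls Svop went from 12 counts in total over the E9.0 libraries to 98 counts over the E9.5 ones, with means of 0.216 ± 0.141 and 1.04 ± 0.174 CPM (SD, n = 3 each).

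For Sec14l5 no genotype difference was detectable at E9.5. It had 11, 13 and 10 counts in heterozygous and 9, 21 and 3 counts in homozygous libraries, and the homozygous values lay on both sides of the control ones. The log2 difference was 0.04 ± 0.48 (SE; 95% interval −0.97 to 1.05; edgeR adjusted p 0.989). It was −0.74 without homozygous E9.5 replicate 2 and 0.42 without homozygous E9.5 replicate 3, so single libraries set its sign. With limma-voom it was −0.25.

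The leukotriene receptors rested on low counts at E9.5, and neither passed the threshold. Ltb4r1 had 2, 3 and 2 counts in heterozygous and 2, 12 and 13 counts in homozygous libraries, so that homozygous replicate 1 was at the control level while replicates 2 and 3 were above it. Its log2 difference of 1.97 ± 0.75 (SE) missed it (edgeR adjusted p 0.245; exact permutation p 0.3). Ltb4r2 had 9, 9 and 5 counts against 17, 13 and 11, and every homozygous library was above the controls in CPM (0.178 to 0.274 against 0.399 to 0.573). Its log2 difference was 0.92 ± 0.46 (SE; 95% interval −0.06 to 1.90; edgeR adjusted p 0.411). Homozygous replicate 1 was thus the library with the most Ltb4r2 and the fewest Ltb4r1 transcripts of its group.

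**Figure D2:**
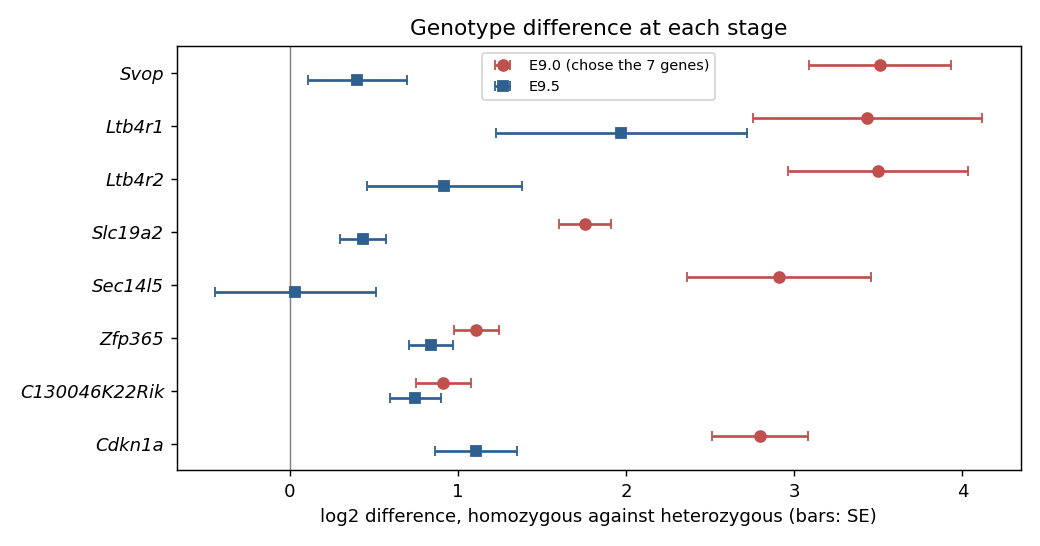
Log2 difference between homozygous and heterozygous libraries for each gene at E9.0 (red circles, the stage that chose the 7 genes) and at E9.5 (blue squares), with SE bars from the edgeR fit, n = 3 per group. Values at E9.0 and E9.5 are 1.11 and 0.84 for Zfp365, 0.91 and 0.75 for C130046K22Rik, 3.51 and 0.40 for Svop, and 2.91 and 0.04 for Sec14l5. Differences between the stages were not tested, since the E9.0 values served the choice.

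Cdkn1a served as the comparator. It was at 2.35, 2.84 and 3.57 CPM in heterozygous and 18.8, 12.9 and 30.9 CPM in homozygous E9.0 libraries, and at 5.34, 6.16 and 6.00 against 13.2, 12.1 and 12.4 CPM at E9.5. Within the homozygous E9.0 group its order was replicate 3, then 1, then 2, with the highest library 2.40 times the lowest. All 7 genes had that same order, as did 19.9% of the 14810 tested genes and 40 of the 64 genes called higher at E9.0. Rn45s had it too, at 13.2%, 6.05% and 16.2% of the counts of homozygous E9.0 replicates 1, 2 and 3. So did the summed level of erythroid (red blood cell) markers, at 622, 537 and 1174 CPM. Whether either bears on the order of the 7 genes was not tested. The highest-to-lowest ratio within this group was 3.93 for Ltb4r1, 3.27 for Ltb4r2, 2.03 for Svop, 1.97 for Sec14l5, 1.56 for Slc19a2, 1.32 for C130046K22Rik and 1.26 for Zfp365. At E9.5, where Cdkn1a varied little between homozygous libraries, only Ltb4r2 followed its order (replicates 1, 3, 2).

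**Figure D3:**
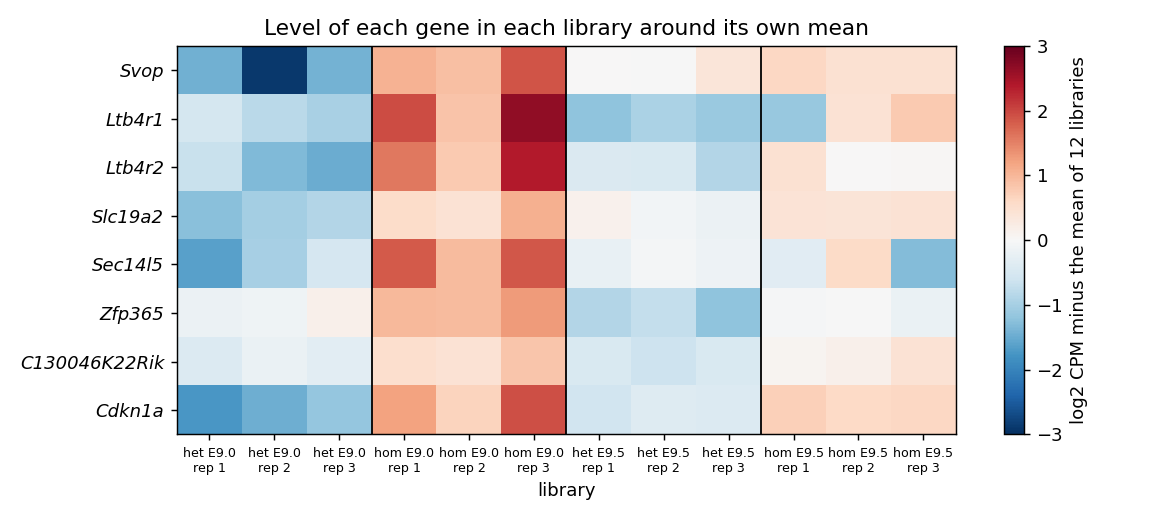
Log2 CPM (prior count 2) of each gene in each library minus that gene's mean over the 12 libraries, from −3 (blue) to 3 (red); black lines separate the 4 groups of 3. The homozygous E9.0 columns are above each gene's mean for all 8 genes and highest for replicate 3.

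Deviations of log2 CPM from the group means were then correlated with those of Cdkn1a over the 12 libraries, giving 7 relations in all. They are not independent of the choice of genes, since 6 of the 12 libraries are the E9.0 ones that served it, and 62.5% of the genes called higher at E9.0 shared the order of Cdkn1a, against 19.9% of tested genes. The p-values are given with that limit. Pearson's r was positive for each gene. It was highest for Slc19a2, at 0.83 (exact permutation within groups, two-sided p 0.0517, adjusted p 0.193), with a Spearman's rho of 0.55 (exact permutation p 0.185). For Zfp365 r was 0.60 (exact permutation p 0.0579, adjusted p 0.193) and rho 0.62 (exact permutation p 0.0810), and for Sec14l5 r was 0.50 (exact permutation p 0.0826, adjusted p 0.193) and rho 0.55 (exact permutation p 0.103). For Svop, Ltb4r1, Ltb4r2 and C130046K22Rik r was 0.48, 0.46, 0.56 and 0.59 (exact permutation p 0.229, 0.350, 0.363 and 0.228, adjusted p 0.321, 0.363, 0.363 and 0.321). Their rho was 0.48, 0.13, 0.14 and 0.37 (exact permutation p 0.275, 0.768, 0.756 and 0.373). None of the 7 passed after adjustment, and 0 had an unadjusted exact permutation p under 0.05.

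Single libraries moved these correlations in both directions. With 1 library left out, r ran from 0.13 (without homozygous E9.0 replicate 3) to 0.82 (without heterozygous E9.0 replicate 2) for Svop. For Ltb4r1 it ran from 0.03 (without homozygous E9.0 replicate 2) to 0.76 (without homozygous E9.5 replicate 1), and for Ltb4r2 from −0.03 (without homozygous E9.0 replicate 3) to 0.85 (without heterozygous E9.0 replicate 1). Without homozygous E9.0 replicate 3, r was 0.53 for Slc19a2, 0.41 for Zfp365 and 0.08 for C130046K22Rik, and the highest values of these genes were 0.96, 0.81 and 0.73, without heterozygous E9.5 replicates 1 and 3 and homozygous E9.5 replicate 3. Sec14l5 ran from 0.31 (without homozygous E9.0 replicate 2) to 0.73 (without homozygous E9.5 replicate 2). Homozygous E9.0 replicates 3 and 2, the libraries where Cdkn1a deviated most, were also left out together, with group means recomputed. Then r was 0.50 for Slc19a2, 0.49 for Zfp365, 0.45 for Sec14l5 and 0.11 for Svop. For C130046K22Rik, Ltb4r1 and Ltb4r2 r was 0.0089, −0.34 and −0.64. Over the 6 E9.0 libraries alone it ranged from 0.48 for Svop to 0.97 for Slc19a2, and over the 6 E9.5 libraries from −0.74 for Slc19a2 to 0.45 for Svop. In 1 of 18 alternatives, the one without heterozygous E9.5 replicate 1, Slc19a2 (r = 0.96) and Zfp365 (r = 0.63) passed (exact permutation, adjusted p 0.0324 each). That alternative keeps the E9.0 libraries that served the choice, over which r was 0.97 and 0.88, so that pass is no independent evidence. For these genes r over all 6 E9.5 libraries (−0.74 and 0.05) includes the library left out here. It was not computed over the remaining E9.5 libraries.

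Counts of a gene per 100 Cdkn1a counts of the same library need no scaling between libraries. Svop had 10.8, 14.2 and 12.01 of them in the homozygous E9.0 libraries, 11.2, 10.9 and 10.6 in the homozygous E9.5 libraries, and 17.7, 15.2 and 20.7 in the heterozygous E9.5 libraries. In the heterozygous E9.0 libraries it had 12.5, 1.89 and 8.43, from 4, 1 and 7 Svop counts. Slc19a2 had 147, 158 and 159 in the homozygous against 302, 226 and 217 in the heterozygous E9.5 libraries. For both, and for Sec14l5 (0.909 to 5.32 against 5.92 to 6.29), every homozygous E9.5 library lay below every heterozygous one (exact permutation p 0.1, the smallest possible). So it did for 93.6% of the 14809 other tested genes, Cdkn1a itself being 2.15-fold higher in homozygous libraries at E9.5, and the separation is therefore nothing particular to these 3 genes. The ratios overlapped for Ltb4r1, Ltb4r2 and C130046K22Rik (exact permutation p 0.4, 0.7 and 0.2). For Zfp365 they also overlapped (exact permutation p 0.3), with means of 90.5 ± 7.54 and 109 ± 19.5 (SD, n = 3 each) in homozygous and heterozygous libraries.

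The tested genes with the most similar course over the 12 libraries were found by the root-mean-square difference of centred log2 CPM (prior count 2). Since the 7 genes were chosen for a rise at E9.0, other genes that rose then come close by construction. Of the 21 nearest places, 3 for each gene, 9 were held by genes of a list of 36 p53 targets. That list supplied 18 of the 64 genes called higher at E9.0 and 35 of the 14810 tested genes, so the count is read as a description only. Svop was nearest to Phlda3, a p53-induced inhibitor of Akt (0.45), and to Cdkn1a (0.53), against a spread of Svop around its own mean of 1.25. Ltb4r2 was nearest to Ptprv, a p53-responsive phosphatase gene (0.30), followed by Ddit4l (0.44) and Cdkn1a (0.47), against its own spread of 1.10. The gene nearest to Ltb4r1 was Ltb4r2 (0.64), followed by Ptprv (0.66).

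Slc19a2 was nearest to Mab21l3 (0.17), Fam212b (0.21) and Trp53inp1 (0.24), a p53-induced nuclear protein gene, and Cdkn1a came 68th. The nearest gene of Sec14l5 was Zfp750 (0.53), followed by Hs3st4 (0.60) and Eda2r (0.60), with Cdkn1a 19th. For Zfp365 and C130046K22Rik, Cdkn1a came 11217th and 13209th of the 14809 genes compared. This measure counts amplitude as well as shape, and Cdkn1a spread more widely around its mean (1.08) than Zfp365 (0.72) or C130046K22Rik (0.45). Ranked from the side of Cdkn1a, Slc19a2 came 8th, Ltb4r2 9th, Svop 13th, Sec14l5 40th, C130046K22Rik 46th, Ltb4r1 75th and Zfp365 152nd. Zfp365 was closest to Ndufa4l2 (0.16), Abca6 (0.25) and Mir483 (0.26), of which 0 were on the p53 list. Ndufa4l2, like Zfp365, was higher in homozygous E9.5 libraries (log2 difference 1.09, edgeR adjusted p 0.0336). C130046K22Rik was closest to Prrg4 (0.19), Sesn2 (0.20), a p53 target of the stress response, and Mmrn2 (0.20), an endothelial matrix glycoprotein that was higher in homozygous E9.5 libraries (0.76, edgeR adjusted p 0.00279).

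Of the 36 genes on the p53 list, which holds none of the 7, 35 were tested. At E9.0, 18 were higher and 0 lower at an adjusted p under 0.05 (edgeR), with a median log2 difference of 0.50 where that of all tested genes was −0.0043; at E9.5 these counts were 6 and 0, with a median of 0.15. The E9.5 count was 3 or 4 when any 1 E9.5 library was left out. Cdkn1a, Ccng1, Tnfrsf10b, Eda2r, Ak1 and Ddit4l were past the threshold at both stages. Phlda3, Ptprv, Fas, Pmaip1, Trp53inp1, Sesn2, Plk2, Mdm2, Bbc3, Zmat3, Btg2 and Gtse1 passed at E9.0 only, which is not a test of a stage difference.

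Other genes of the pathways to which the 7 belong by function did not pass the threshold. Of all tested genes only 0.587% passed at E9.0 and 1.89% at E9.5 (edgeR, either direction), so a count of 0 on a short list is near that share. Of 13 genes of thiamine transport and use, 0 passed at either stage (edgeR; 2 at E9.0 and 0 at E9.5 had an unadjusted p under 0.05). The sister transporters Slc19a1, which carries folate, and Slc19a3 had log2 differences of −0.06 and 0.20 at E9.0 and −0.04 and 0.16 at E9.5. Tkt, the thiamine-dependent transketolase, was at 0.09 and −0.02. Of 9 tested genes of leukotriene synthesis and receptors, 0 passed at either stage, and 0 had an unadjusted p under 0.05 (edgeR). Lta4h, whose enzyme makes leukotriene B4, was at −0.06 and 0.04 while Alox5, at 1.12 and 0.59, had adjusted p-values of 0.415 and 0.557 (edgeR). The cysteinyl leukotriene receptor Cysltr1 was at −0.09 and 0.25.

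None of 14 SV2 family and synaptic vesicle genes passed at either stage, with medians of −0.19 at E9.0 and −0.11 at E9.5 (edgeR; 0 and 4 had an unadjusted p under 0.05). Svopl, the closest relative of Svop, was at −0.38 and −0.10, and Sv2a at −0.07 and 0.41. Among 9 tested SEC14-like genes 0 passed (edgeR; 2 at each stage had an unadjusted p under 0.05, and DESeq2 called 1 as lower at E9.5), with Sec14l1 at −0.09 and 0.02 and Sec14l2 at −0.18 and −0.07. A list of 17 genes of replication stress and partners of Zfp365 likewise had 0 past the threshold at both stages (edgeR; 4 at E9.0 and 0 at E9.5 had an unadjusted p under 0.05), with medians of −0.08 and −0.07. DESeq2 and limma-voom also gave 0 for the leukotriene, thiamine, synaptic vesicle and replication lists.

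**Figure D4:**
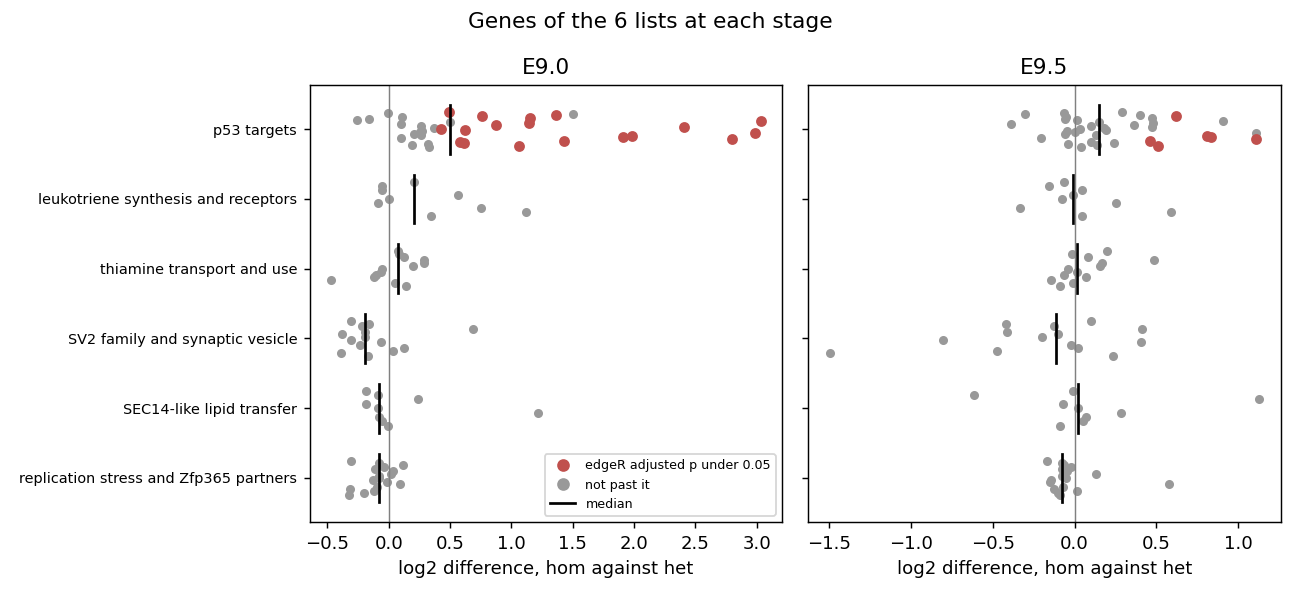
Log2 difference between homozygous and heterozygous libraries for the tested genes of 6 lists at E9.0 (left) and E9.5 (right); each point is a gene, red where the edgeR adjusted p was under 0.05, and black bars are medians. Only the p53 list has red points, 18 at E9.0 and 6 at E9.5.

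Markers of the cells in which the receptors and the vesicle protein are best known were examined beside them. Of 15 leukocyte and macrophage markers 6 were tested; 0 passed at either stage and 0 had an unadjusted p under 0.05 (edgeR), and all 6 had estimates above 0 at E9.0 and 3 at E9.5. Their summed level was 3.16 to 3.54 CPM in heterozygous and 3.83 to 5.61 CPM in homozygous E9.0 libraries, and 4.14 to 7.88 against 4.79 to 6.33 CPM at E9.5. Ptprc, the pan-leukocyte antigen CD45, averaged 0.0717 CPM in heterozygous and 0.283 CPM in homozygous E9.0 libraries, with 5 and 13 counts in all. The untested myeloid markers Itgam, Adgre1 and Spi1 each had 3 counts over the heterozygous and 13, 10 and 7 over the homozygous E9.0 libraries, while Cd14 had 16 and 10 and Elane 1 and 0. The part of leukocytes in the E9.0 levels of Ltb4r1 and Ltb4r2 was not tested. Of 13 markers of cranial ganglia and neurons, 0 passed at E9.0 (edgeR; 7 had an unadjusted p under 0.05), and their sum was 92.4 to 95.5 CPM in heterozygous and 89.97 to 91.6 CPM in homozygous libraries. Estimates were above 0 for 6 of the 13, and Tubb3 held the largest share of the sum. The part of neuronal RNA in the E9.0 level of Svop was not tested. At E9.5 Tubb3 and Pou4f1 were lower in homozygous libraries, with log2 differences of −0.69 and −0.95 (edgeR adjusted p 1.7e-04 and 0.0107). That count of 2 was 1 without homozygous E9.5 replicate 1 or 2. Of 10 neural crest markers, Tfap2b passed as lower at E9.0 and E9.5, and Sox10 and Foxd3 at E9.5. Estimates were above 0 for 1 of the 10 at each stage. The summed level of the 10 was 439 to 480 CPM in heterozygous and 381 to 407 CPM in homozygous E9.0 libraries. At E9.5 the sums overlapped, at 267 to 344 against 273 to 325 CPM. The E9.5 count of 3 was 1 without homozygous E9.5 replicate 2, and the E9.0 call was lost with scaling by total counts alone. Of erythroid markers, 0 of 7 tested passed at either stage (edgeR; 0 had an unadjusted p under 0.05). Their summed level was 646 to 1143 CPM in heterozygous and 537 to 1174 CPM in homozygous E9.0 libraries, and 3970 to 5200 against 2789 to 5105 CPM at E9.5. Homozygous E9.0 replicate 3, the highest library for all 7 genes, stood apart at 1174 CPM from replicates 1 and 2 at 622 and 537 CPM. Heterozygous E9.0 replicate 3 was at 1143 CPM, beside 849 and 646 CPM in replicates 1 and 2. In that library all 7 genes were below every homozygous E9.0 library. Within its own group it was highest for Svop, Slc19a2, Sec14l5 and Zfp365 but not for the other members.

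The genes beside the 7 on the chromosome were then compared, since reads of a neighbour can be counted for a gene where strand is not used. Of 14 adjacent or overlapping genes 11 were tested and 0 passed at E9.0 or E9.5 (edgeR, lowest adjusted p 0.339 and 0.150). At an unadjusted p under 0.05 there was 1 at each stage, Rtkn2 at E9.0 and Adcy4 at E9.5, and DESeq2 and limma-voom also called 0. Their log2 differences ran from −0.25 for Rtkn2 to 0.37 for Wnt9b at E9.0, and from −0.21 for Wnt9b to 0.46 for Adcy4 at E9.5. Usp30, a deubiquitinase gene that shares 161 exonic bases with Svop on the opposite strand, was at 21.8 and 21.9 CPM in heterozygous and homozygous E9.0 libraries (log2 difference 0.01 ± 0.10, SE). Gosr2, which overlaps C130046K22Rik, was at 88.0 and 89.6 CPM (0.03 ± 0.06, SE).

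Adcy4, the gene beyond Ltb4r1, was at 0.03 ± 0.17 (SE) at E9.0. Cideb, whose RefSeq span overlaps that of Ltb4r2 by 503 bases, had 3 counts over the heterozygous and 4 over the homozygous E9.0 libraries, too few for a test, against 7 and 67 for Ltb4r2. F5 and Ccdc181 beside Slc19a2 were at −0.075 and −0.0014, Ppl and Nagpa beside Sec14l5 at 0.16 and 0.11, and Ado and Rtkn2 beside Zfp365 at 0.09 and −0.25.

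**Figure D5:**
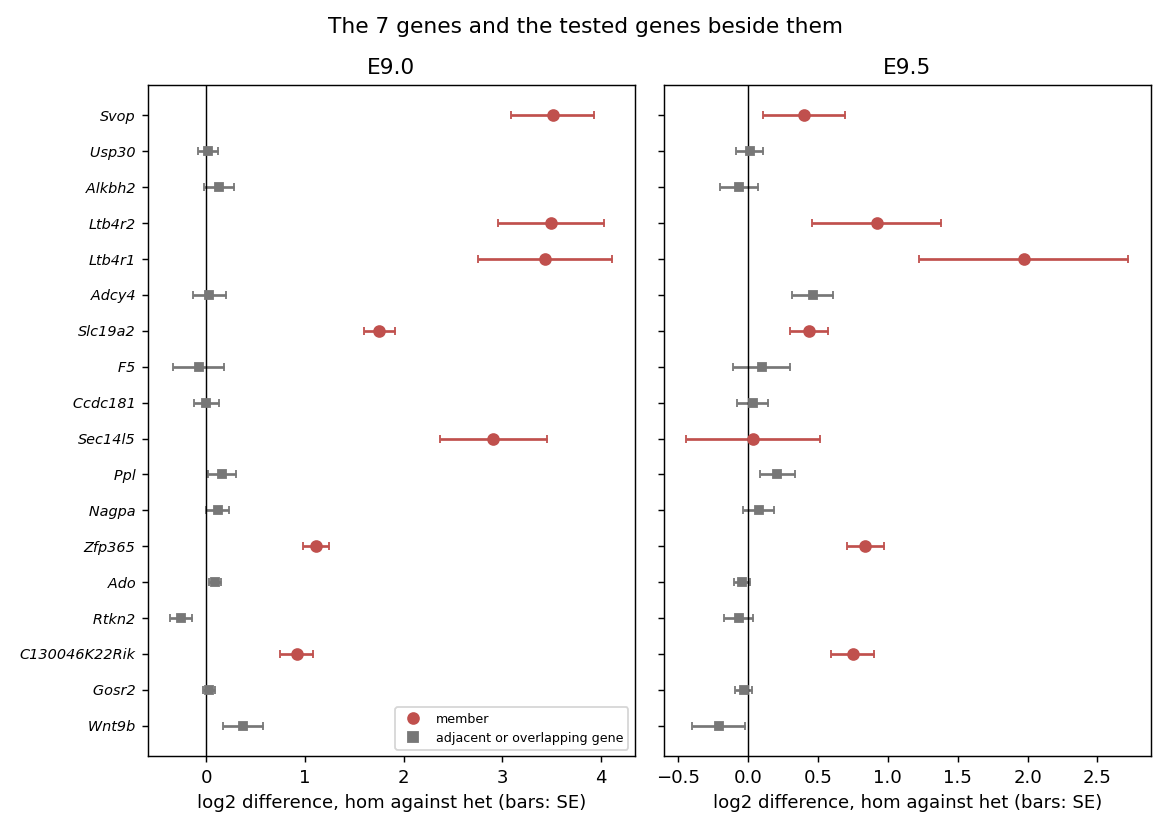
Log2 difference between homozygous and heterozygous libraries, with SE bars, of the 7 genes (red circles) and the 11 tested genes that adjoin or overlap them (grey squares, listed under their member) at E9.0 and E9.5. The neighbours lie between −0.25 and 0.37 at E9.0.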

How the data were processed

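RNA was sequenced in 12 libraries of embryonic tissue, whose labels name neural crest cells, cranial nerve ganglia and heads. The authors deposited 1 table of raw counts per gene symbol, whole numbers without normalization; the submitters' processing notes name cutadapt, STAR, featureCounts, MultiQC and the build mm10, while annotation and strand setting are not given in the sources used here. All 12 columns matched a sample.

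The raw counts went into edgeR 4.0.16 under R 4.3.3 (filterByExpr by group, 14810 of 24421 symbols kept; TMM; robust quasi-likelihood F test fitted jointly to the 12 libraries with 4 group means; Benjamini-Hochberg adjustment over all tested genes, two-sided, threshold 0.05). The fit was tested on simulated counts first. Log2 CPM used a prior count of 2. Standard errors are the log2 difference divided by the square root of F. The 7 genes, the lists, written from general knowledge, and the tests were chosen with earlier results of these data known; E9.0 differences of the 7 genes, and their differences between stages, are therefore given without a test. Named genes are the 7, Cdkn1a, Eftud2, list genes past the threshold, up to 3 examples of high level for each list, the 3 nearest genes in course, and adjacent or overlapping genes; further list genes (Slc19a3, Svopl, Alox5, Cysltr1, Sec14l2, Ptprc, Itgam, Adgre1, Spi1, Cd14, Elane) were named after their values were seen. Coordinates come from GENCODE M21 and promoters from RefSeq. Replicates of 1 group differed by more than counting noise. Alternatives were other scalings, DESeq2 1.42.0, limma-voom (limma 3.58.1), other filters, non-robust dispersions, stage-wise fits, a replicate block, removal of Rn45s, and each library left out. Intervals on count ratios cover counting error only.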

Additional observations from a re-analysis of the deposited data

Results flagged for a closer look

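Among the list genes, a pair of p53 targets had genotype effects that differed between the stages by a test of the difference itself. The lists were chosen with earlier results of these data known. The share of all tested genes that passed this test is not given here, so the pair is a description only. For Ccng1, a cyclin-like p53 target, the E9.0 log2 difference was 1.43 and the E9.5 one 0.46, an interaction of −0.97 ± 0.15 (SE; edgeR adjusted p 0.0213). For Phlda3 these were 2.41 and 0.48, an interaction of −1.93 ± 0.28 (SE; edgeR adjusted p 0.0213). Phlda3 was also the gene whose course over the libraries was closest to that of Svop.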

How the results depend on the processing

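The E9.5 call of Zfp365 held in all 17 alternatives. The number of the 7 genes past the threshold at E9.5 was 2 with all libraries, 1 with total counts only, 3 with only the E9.5 groups, and 1 to 2 when 1 E9.5 library was left out. Genes past it at E9.5 numbered 280, 123 with total counts only (58 higher), 449 with DESeq2, and 133 to 252 with 1 library left out, the lowest without homozygous replicate 2, then 136, 151 and 168 without homozygous replicate 3, heterozygous replicate 2 and homozygous replicate 1. At E9.0 they numbered 87, 203 with DESeq2, 51 with limma-voom, and 38 to 86 with 1 library left out (38 without homozygous replicate 3, 39 without heterozygous replicate 2). Total counts only moved the median of all genes to 0.19 at E9.0, and Zfp365 and C130046K22Rik there to 1.29 and 1.10. The causes were not tested. Genes following Cdkn1a numbered 0, and 0 to 2 with 1 library left out. With the replicate block, 2 of the 7 genes, 248 genes at E9.5 and 69 at E9.0 passed; same-numbered libraries had correlations of −0.10 to 0.29, so the numbers were not taken as pairs, and the block changed no call of the 7. For lists at E9.5, alternatives gave 3 to 10 p53 targets against 6, 3 to 10 endothelial markers against 8, 1 to 3 lower neural crest markers against 3 and 1 to 3 lower neuronal markers against 2. A mean of 50 counts left 3 of the 7 genes testable. Depth limits Ltb4r1, Ltb4r2 and Sec14l5, with 6, 7 and 10 counts over the heterozygous E9.0 libraries.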
